A study of Mus musculus with 36 samples.

Results

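The complement and coagulation factors are 38 plasma protein and receptor genes named in a list drawn up for the liver data, and all 38 were found among the 53715 gene identifiers of the table. They were matched by Ensembl identifier to mouse gene symbols. The RNA came from livers of male C57BL/6 mice that were 10 weeks old and was sequenced as 36 libraries, each with its own mouse number. From 4 weeks of age and for 6 weeks, mice ate AIN93G, a purified rodent diet (Control), or a diet holding 10% by weight of powder from red tomatoes (Red) or from tangerine tomatoes (Tangerine). There were 12 libraries per diet, where the labels put 11 to 12 mice in a group. The labels name no transgene, and every mouse shared the strain, the sex and the age. P-values below measure the spread between these libraries.

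Complement is a cascade of plasma proteases and binding proteins that marks microbes for uptake, releases inflammatory fragments and ends in a pore set into the target membrane. Coagulation is a second protease cascade, in which thrombin cuts fibrinogen into fibrin, while anticoagulants restrain it and plasmin dissolves the clot. Hepatocytes make most of these proteins and secrete them into blood, and several of them, fibrinogen above all, belong to the acute phase proteins that interleukin-6 induces in liver.

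Fibrinogen is built from 3 chains, and their genes were the members that differed between the tomato diets, so the sequence before each gene is shown first. The genes lie side by side on chromosome 3 in the mouse build GRCm38, with Fgg at chr3:83007724-83015049 and Fga at chr3:83026076-83033627 on the plus strand and Fgb at chr3:83040141-83049863 on the minus strand. The stretches below come from RefSeq promoter sequences of GRCm38.p6, hold 150 bases each and are written in the direction of transcription. Capitals mark CTGGGA or its longer form CTGGGAA, letters of the type of site through which interleukin-6 signalling acts on acute phase genes.
Fga, chr3:83025926-83026075, plus strand: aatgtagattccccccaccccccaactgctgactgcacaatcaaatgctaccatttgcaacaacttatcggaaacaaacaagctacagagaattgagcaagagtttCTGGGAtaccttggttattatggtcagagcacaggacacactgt
Fgb, chr3:83049864-83050013, minus strand: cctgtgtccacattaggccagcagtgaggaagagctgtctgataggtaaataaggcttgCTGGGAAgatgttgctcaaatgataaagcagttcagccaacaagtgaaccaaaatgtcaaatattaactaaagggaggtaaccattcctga
Fgg, chr3:83007574-83007723, plus strand: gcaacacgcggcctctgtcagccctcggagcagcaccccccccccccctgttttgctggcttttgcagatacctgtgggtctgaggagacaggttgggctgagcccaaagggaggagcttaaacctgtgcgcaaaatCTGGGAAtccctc

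The Fgb and Fgg stretches end at the annotated start, and that of Fga ends 77 bases before the RefSeq start, where the first annotated exon of the gene begins. CTGGGAA lay 91 bases before the start of Fgb and 13 bases before that of Fgg, and Fga held the shorter CTGGGA 121 bases before its start. In the 250 bases before the start, searched on both strands, CTGGGAA was found for 4 of the 29 members with a RefSeq promoter and for 10.4% of 27025 genes. CTGGGA, which every CTGGGAA contains, was found for 13 of 29 members and 29.8% of genes. TTGCNNAA, letters bound by C/EBP factors, was found for 8 of 29 members, Fga and Fgb among them, and for 10.8% of genes. GTTAAT, part of the site of the hepatocyte factor HNF1, was found for 6 of 29 members, again with Fga and Fgb, and for 7.49% of genes. The clock-related letters CACGTG were found for 0 of 29 members and 6.86% of genes, and TTATGNAA for 2 of 29 members, neither a fibrinogen chain, and 3.63% of genes.

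Each library held between 21290169 and 33810573 counts. The hepatocyte markers summed to medians of 105410 CPM (counts scaled to a common library size) on Tangerine, 106884 CPM on Red and 113213 CPM on Control, and 0 of these 8 markers was at 0 throughout. Some libraries stood apart by markers of other tissues or cells. Red mouse 186 held 204 counts of the adipose genes Adipoq, Plin1 and Lep and 243 CPM of T cell markers, against at most 4 counts and 7.41 CPM in Control. Tangerine mouse 216 held 321 counts of pancreas markers, against at most 2 in Control. Tangerine mouse 192 held 111 CPM of cholangiocyte markers and 7.85 CPM of neutrophil markers, against at most 30.3 CPM and 2.79 CPM in Control. Control mouse 137 and Tangerine mouse 225 were low in markers of sinusoidal endothelial cells, with 65.8 and 104 CPM against medians of 193 and 194 CPM in their diets. The r of C8g, C1s1 and Mbl2 with these markers was -0.72, -0.58 and -0.53 after the diet means were subtracted and -0.04, -0.14 and -0.01 without the 2 libraries farthest from the median, given as a description. In bulk liver RNA, fewer cells of a type and less RNA per cell cannot be told apart.

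The members differed widely in transcript level. On the RPKM scale, which is CPM divided by the transcript's length in kilobases, Fgg stood highest with a median of 1803 over the 36 libraries, followed by Fga with 1795, Fgb with 1214, Kng1 (kininogen, the source of bradykinin) with 1084 and C3, on which all complement pathways meet, with 1056. The coefficient of variation within diets was 14.0% for each of the first 2, and their order changed with diet. Medians of Fgg and Fga were 1855 and 1748 on Control, 1997 and 2125 on Red, and 1530 and 1521 on Tangerine. Another 18 members lay between 100 and 1000, with Plg (plasminogen) at 933 and F2 (prothrombin) at 818, and 11 lay between 10 and 100. Within diets, 33 members varied by a coefficient of variation under 20%, from 6.62% for Masp1, a protease of the lectin pathway. C6, a component of the pore, varied by 31.3%, and C5ar1, the receptor of the fragment C5a found on myeloid cells, by 53.4%.

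**Figure D1:**
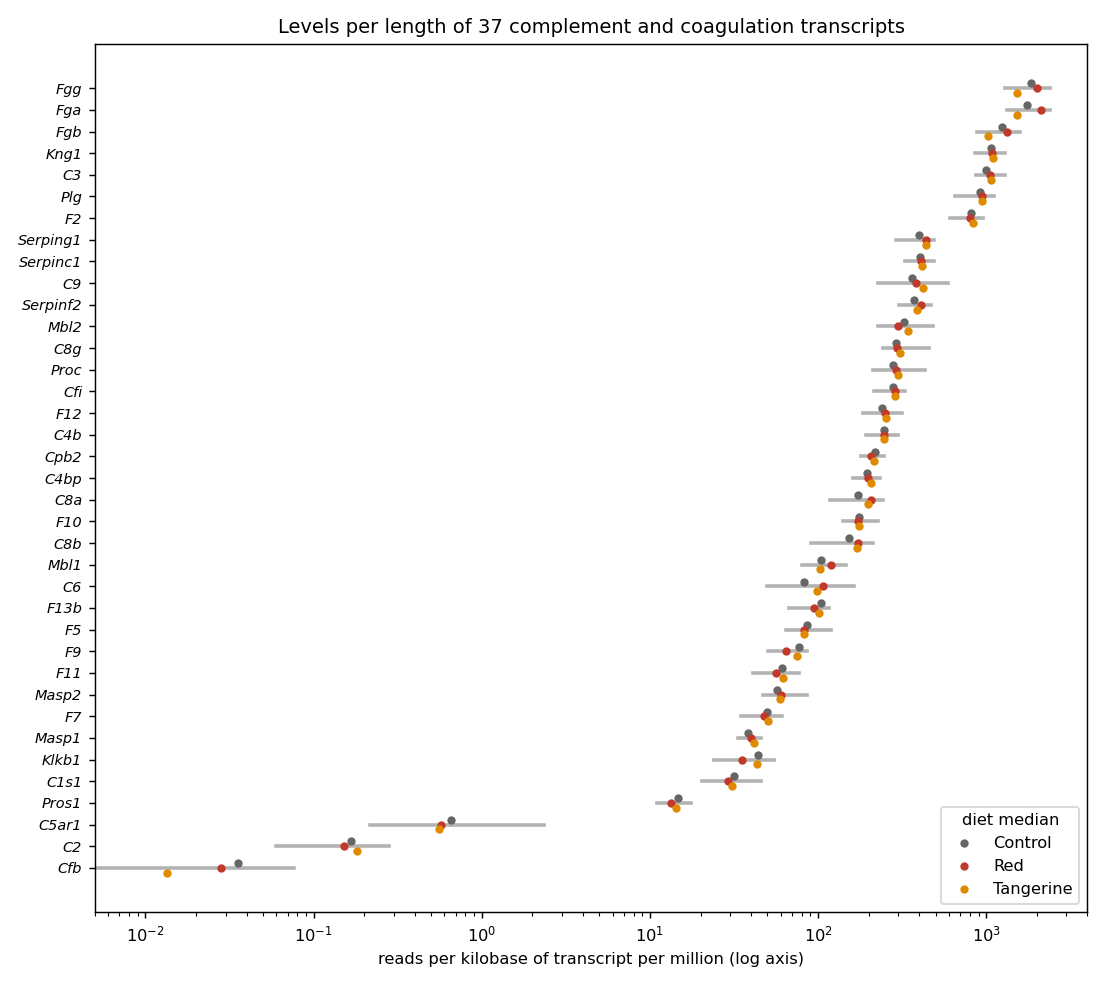
RPKM, reads scaled for depth and transcript length (x axis, logarithmic), for 37 members, with 1 point per diet at the median of its 12 libraries. The fibrinogen chains, Kng1 and C3 stand above 1000 and C5ar1, C2 and Cfb below 1, and the 3 diets' points lie close together for nearly every gene.

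A few liver-made factors were close to absent from the counts. Serpind1 (heparin cofactor II, a thrombin inhibitor) had 0 counts in all 36 libraries, which allows a level of up to 0.0887 to 0.141 CPM per library (3 counts, counting error only). Cfb (factor B, the protease of the alternative pathway) had at most 6 counts in a library, and C2, its classical pathway counterpart, at most 20. Exons of Cfb shared 79.5% of their bases with other annotated genes and those of C2 46.9%. Exons of Serpind1 shared 0%, but its whole span lies within Pi4ka, a gene of the opposite strand with 48053 counts over all libraries. How the authors' counting treated shared bases or overlapping spans is not given in the sources used here, so these low values need not be low transcript levels. Among members with many counts, Masp2 shared 54.9% of its exon bases, Klkb1 43.2%, Serpinc1 34.4%, C1s1 18.4% and Plg 11.3%. Counting only genes of the same strand, the share was 43.2% for Klkb1 and 0.0% for Masp2, Serpinc1, C1s1 and Plg. Reads of C4b and C4a, of Kng1 and Kng2, and of C1s1 and C1s2, which are close copies, may likewise be divided uncertainly.

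The 36 members with enough counts (all but Cfb and Serpind1) were tested with edgeR among 14068 genes. Between Tangerine and Red, 3 members passed an adjusted p of 0.05, all lower on Tangerine, against 1.71% of all genes tested and 0.981% in that direction. These were Fga, Fgb and Fgg. Another 8 members had an unadjusted p under 0.05, which makes 11 of 36 where 15.1% of all genes did. The median log2 fold change of the 36 members was 0.06, and 29 of them had a value above 0, against 48.5% of all genes. Against Control, 0 of 36 members passed on Red, where 0.149% of all genes did, and 0 passed on Tangerine, where 0.0142% did. At an unadjusted p under 0.05 there were 7 members on Red, 3 higher and 4 lower (13.3% of all genes, 6.67% higher and 6.63% lower), and 3 on Tangerine (5.47% of all genes). With both tomato diets set against Control, 0 members passed and 1 had an unadjusted p under 0.05 (0.00711% and 6.77% of all genes). In the test for any difference among the diets 0 members passed and 8 had an unadjusted p under 0.05 (1.18% and 13.9% of all genes), and Fga had an adjusted p of 0.0568 in edgeR. For the 0 members on Red, 4 passed with limma-voom and 4 with surrogate variables, settings under which 1482 and 404 of all genes passed where 21 did in edgeR with diet alone. For the 0 on Tangerine, 1 passed with surrogate variables, with which 100 of all genes passed in place of 2. The comparisons share libraries, so their values are given side by side and not as independent results.

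**Figure D2:**
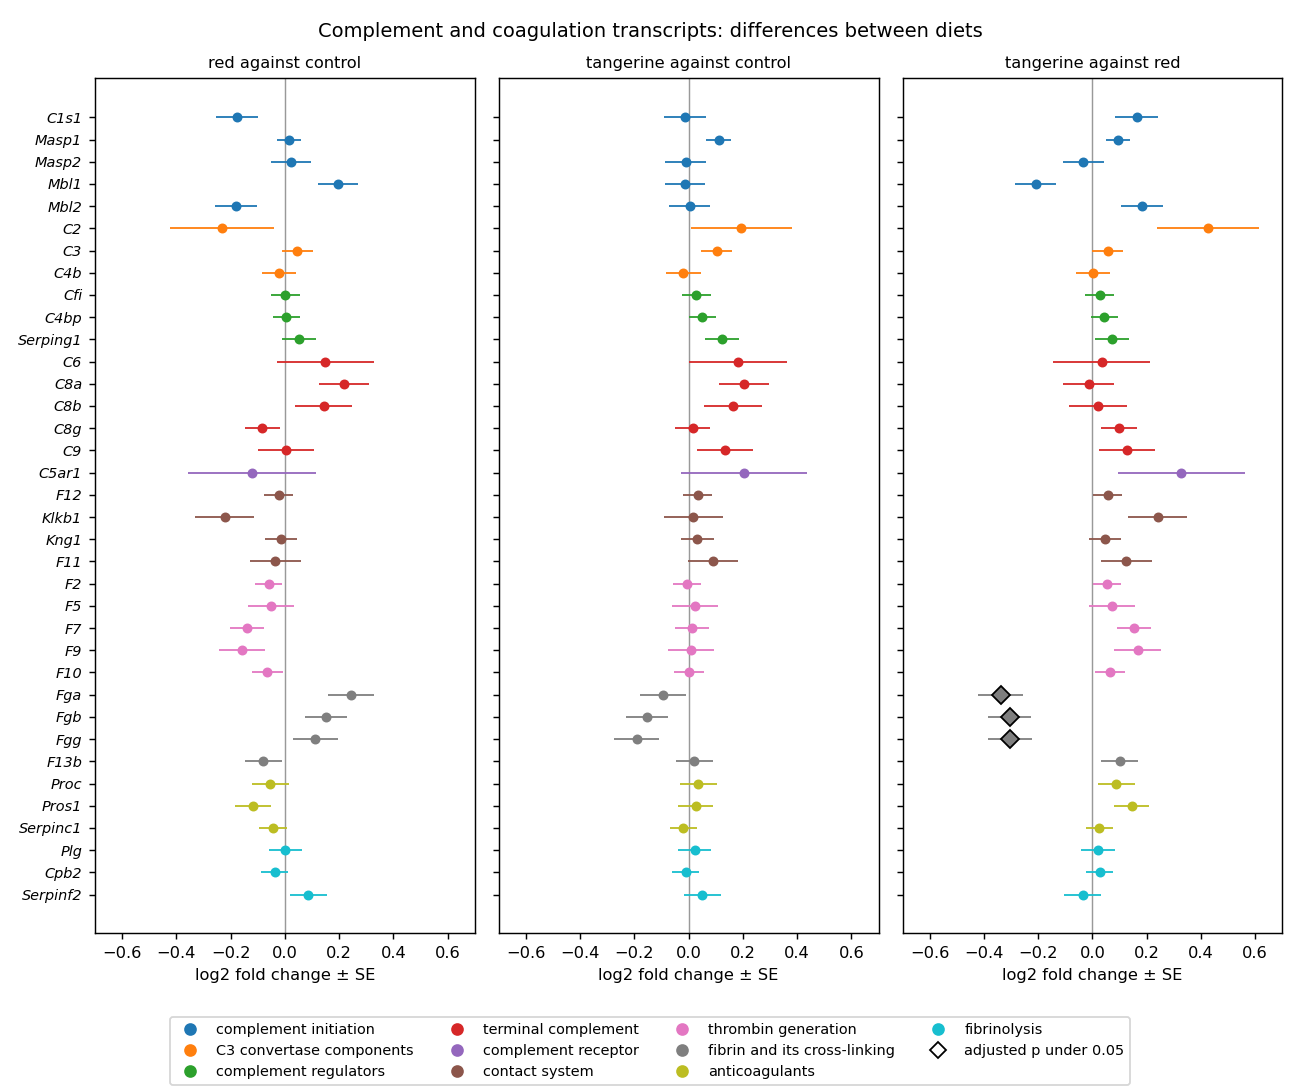
Log2 fold changes of the tested members (x axis) for the comparisons between diets, with members coloured by role, bars of 1 SE to each side and diamonds for an adjusted p under 0.05. The fibrinogen chains, from -0.34 to -0.30, lie lowest in Tangerine against Red and are the members marked with diamonds.

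The fibrinogen chains were lower on Tangerine than on Red by about the same proportion. Fga, which encodes the alpha chain, had 3497 CPM in its lowest Control library, a median of 4522 and a highest value of 5462. Its Red libraries ran from 3816 over a median of 5497 to 6210 CPM. Those of Tangerine ran from 3441 over a median of 3934 to 5223 CPM. The ranges overlapped, but 0 of 12 Tangerine libraries lay above the Red median and 5 lay below the lowest Red library. Tangerine against Red gave a log2 fold change of -0.34 (SE 0.084, adjusted p 0.0278 in edgeR), a mean change of -20.9%.

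Fgb, which encodes the beta chain, ranged from 3508 over a median of 4712 to 5017 CPM on Control. On Red its range was 3498 to 6021 CPM with a median of 5064, and on Tangerine 3348 to 5013 CPM with a median of 3905. Tangerine and Red overlapped over most of their ranges because Red mouse 186 was low, and 1 Tangerine library lay below it, yet 0 of 12 Tangerine libraries exceeded the Red median. The next lowest Red library stood at 4173 CPM. Tangerine stood at -0.31 against Red on the log2 scale (SE 0.078, adjusted p 0.0320 in edgeR).

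Fgg, which encodes the gamma chain, ranged from 2354 over a median of 3144 to 3778 CPM on Control. Its Red libraries ran from 2587 over a median of 3385 to 4033 CPM and its Tangerine libraries from 2201 over a median of 2593 to 3072 CPM. Again 0 of 12 Tangerine libraries exceeded the Red median, and 6 lay below the lowest Red library. Against Red this was -0.30 on the log2 scale (SE 0.083, adjusted p 0.0463 in edgeR). The same mice stood at the ends for all 3 chains on Control (159 lowest, 188 highest) and on Red (186 lowest, 202 highest).

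Control lay between the tomato diets for each chain, and no chain passed the threshold against it. On Red against Control the log2 fold changes were 0.24 for Fga (SE 0.084, edgeR adjusted p 0.181), 0.15 for Fgb (adjusted p 0.402) and 0.11 for Fgg (adjusted p 0.582). On Tangerine against Control they were -0.09, -0.15 and -0.19, and the lowest edgeR adjusted p was 0.819, for Fgg. The difference between the tomato diets was thus made up of a positive value on Red and a negative one on Tangerine, neither of them past the threshold. In other fits Fga passed on Red against Control, with an adjusted p of 0.0141 in limma-voom and of 0.00877 in edgeR with surrogate variables, and Fgb passed with surrogate variables (0.19, adjusted p 0.0471).

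**Figure D3:**
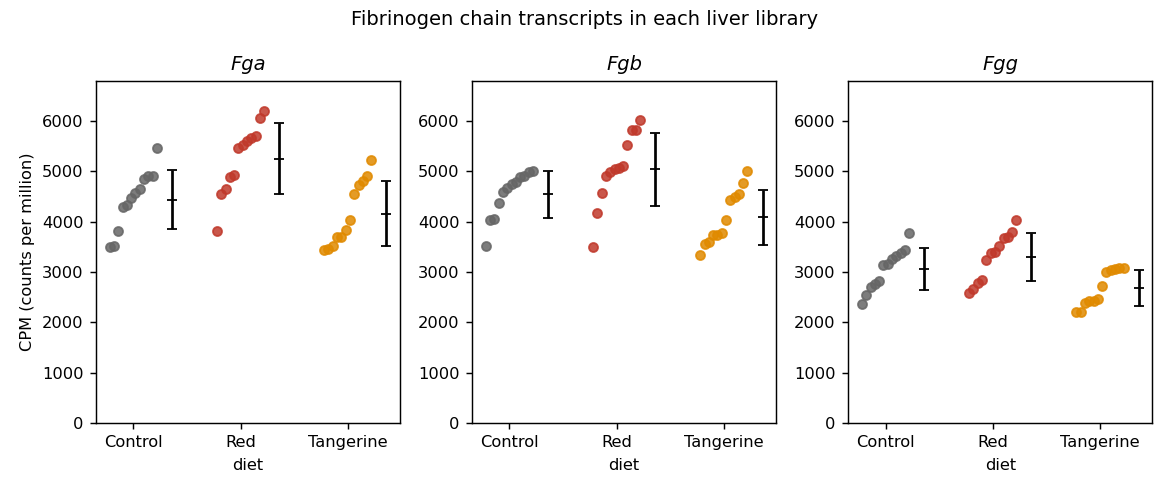
CPM (y axis) of Fga, Fgb and Fgg in every library, by diet, with 12 points per diet in order of level and the mean with its SD beside them. Tangerine points lie below the Red median for all 3 chains, and Control lies between.

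The 3 calls lay close to the threshold. Leaving out 1 library gave between 0 and 3 called chains. At most 1 chain passed without Red mouse 133, 156, 157, 199 or 202 or Tangerine mouse 128, 215, 216, 217 or 242, and Fgg no longer passed in 18 of the 36 fits. The fold changes moved little in these fits, from -0.37 to -0.31 for Fga, from -0.34 to -0.28 for Fgb and from -0.33 to -0.27 for Fgg. Without both Red mouse 186 and Tangerine mouse 216, the libraries with adipose and pancreas transcripts, 2 chains passed, and Fgg had -0.32 with an edgeR adjusted p of 0.0641. With no low-count filter 0 chains passed (edgeR adjusted p 0.0526 for Fga, 0.0642 for Fgb and 0.0909 for Fgg), and with the mouse number as a covariate 0 passed (edgeR adjusted p 0.0805, 0.0952 and 0.125). A fit of only the Tangerine and Red libraries left Fga past the threshold (edgeR adjusted p 0.0370, against 0.0518 for Fgb and 0.0515 for Fgg).

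T cell markers had values of the same sign. Between Tangerine and Red 3 of 5 tested T cell markers passed, all lower on Tangerine, against 1.71% of all genes. All 5 had an unadjusted edgeR p under 0.05, against 15.1% of all genes. Their sums ranged from 3.62 to 7.41 CPM on Control, from 3.12 to 243 on Red and from 4.12 to 8.39 on Tangerine, with medians of 5.32, 6.44 and 6.24 CPM, and the value of 243 was that of Red mouse 186. In that library the T cell sum was the highest of its diet, while Fga, Fgb and Fgg were the lowest of its diet. Without both Red mouse 186 and Tangerine mouse 216, Fga had -0.35, Fgb -0.33 and Fgg -0.32 on Tangerine against Red.

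The state of the circadian clock moved with this difference. A clock score, the first principal component of 10 clock genes and high where Dbp is high, averaged -2.24 ± 1.90 (SD, n = 12) on Red, 1.57 ± 1.98 on Tangerine and 0.66 ± 2.39 on Control. Of these clock genes 6 passed the threshold between Tangerine and Red. With the score in the edgeR fit beside diet, the score term passed for 3 of 36 members, against 6.34% of all genes. These were Fgg, with a log2 change of -0.06 per unit of score (edgeR adjusted p 0.00397), Fga with -0.05 (adjusted p 0.0296) and F5, coagulation factor V, with 0.06 (adjusted p 0.00671). Without Red mouse 186 the term again passed for these 3, and for 5.89% of all genes. Fgb had -0.03 per unit (edgeR adjusted p 0.266).

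Within diets the relation ran the same way. After the diet means were subtracted, Fgg and the clock score had a Pearson's r of -0.62 (permutation p 6.0e-05) and a Spearman's rho of -0.61 (permutation p 0.00017) over 36 libraries, and r was -0.57 without the 2 libraries farthest from the median score. Its r was -0.76 on Control, -0.48 on Red and -0.62 on Tangerine. For Fga the pooled r was -0.51 (permutation p 0.00167, rho -0.55 with permutation p 0.00078), and for Fgb it was -0.32 (permutation p 0.0548, rho -0.42 with permutation p 0.0127). Without Red mouse 186 r was -0.71 for Fgg (permutation p 1e-05, the smallest that the resamples can give), -0.64 for Fga (permutation p 0.00010) and -0.47 for Fgb (permutation p 0.00577). These belong to 36 such relations computed, 1 per tested member. In the fit with the score, the log2 fold changes of Tangerine against Red were -0.14 for Fga, -0.19 for Fgb and -0.07 for Fgg (edgeR adjusted p 0.540, 0.416 and 0.762), and 0 of all genes passed in that comparison. No time of tissue collection is among the labels, so diet and the hour at which a liver was taken cannot be told apart.

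**Figure D4:**
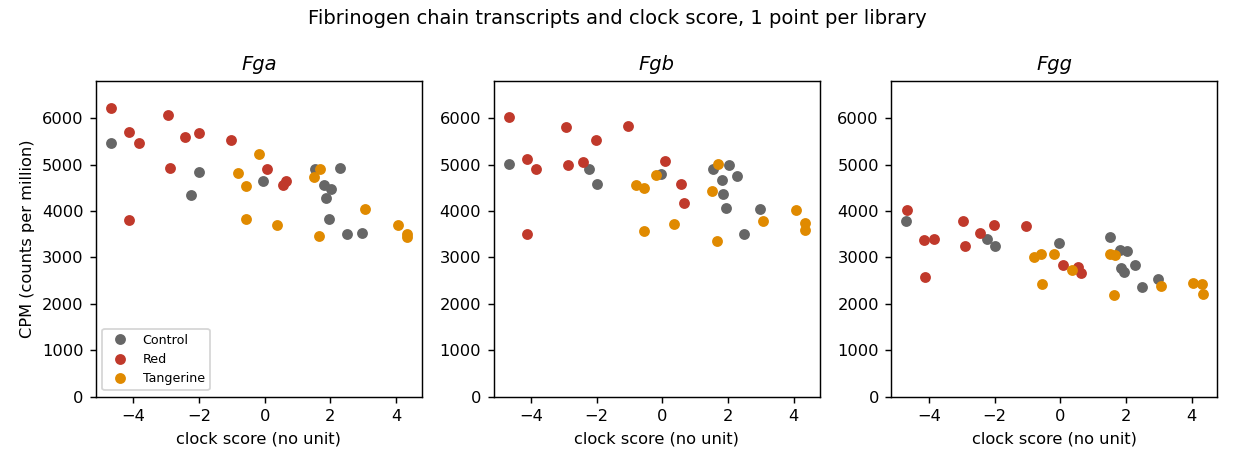
CPM (y axis) of each fibrinogen chain against the clock score (x axis, no unit), with 1 point per library coloured by diet. Red libraries gather at low scores and high CPM, Tangerine libraries at high scores and low CPM, and within a diet Fga and Fgg fall as the score rises.

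The fibrinogen genes also moved together from mouse to mouse, within each diet. After the diet means were subtracted, Pearson's r was 0.90 between Fga and Fgb, 0.90 between Fga and Fgg and 0.89 between Fgb and Fgg, and rho was 0.90, 0.91 and 0.91 (permutation p 1e-05 for each, the smallest that the resamples can give). Without Red mouse 186 these r values were 0.88, 0.89 and 0.90. Plrg1, the next gene on the far side of Fgb, encodes a splicing factor and had -0.13 on Tangerine against Red (SE 0.057, edgeR adjusted p 0.255).

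Complement is started by proteins that recognise a surface and by the proteases they carry, and these 5 members had the most unadjusted differences. Mbl1, a mannose-binding lectin of the lectin pathway, ranged from 125 over a median of 162 to 202 CPM on Control. On Red it ranged from 156 over a median of 186 to 230 CPM and on Tangerine from 131 over a median of 160 to 214 CPM. The diets overlapped, but the Control median was exceeded by 11 of 12 Red libraries and the Red median by 1 of 12 Tangerine libraries. Its log2 difference was 0.20 on Red against Control (SE 0.075, edgeR adjusted p 0.237) and -0.21 on Tangerine against Red (SE 0.075, adjusted p 0.148). With limma-voom and with surrogate variables Mbl1 passed in both comparisons. With the clock score in the edgeR fit its values were 0.10 and -0.08 (adjusted p 0.665 and 0.738).

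Mbl2, the other mannose-binding lectin, had the opposite pattern of values. Its medians were 351 CPM on Control, 326 on Red and 374 on Tangerine, within ranges of 317 to 523, 247 to 419 and 297 to 478 CPM. Red minus Control gave a log2 difference of -0.18 (SE 0.077, edgeR adjusted p 0.303), and Tangerine minus Red gave 0.18 (adjusted p 0.240). C1s1, the protease C1s of the classical pathway, had -0.18 and 0.16 in these comparisons (edgeR adjusted p 0.328 and 0.319). Masp1 stood 0.11 above Control on Tangerine (SE 0.044, edgeR adjusted p 0.782), with 11 of 12 libraries over the Control median, and 0.09 above Red (adjusted p 0.304). With the clock score in the fit its value against Red was -0.000950, so its sign turned. Masp2, its partner protease, lay between -0.03 and 0.02 in the comparisons of single diets.

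The members that form the C3 convertases and those that hold complement in check showed small values. C3 had medians of 5114, 5446 and 5450 CPM on Control, Red and Tangerine, with log2 fold changes of 0.05 on Red and 0.10 on Tangerine against Control (SE 0.057 each, unadjusted edgeR p 0.428 and 0.0799). C4b, shared by the classical and lectin pathways, had -0.02 on each tomato diet (SE 0.063). C2 had medians of 0.44, 0.40 and 0.48 CPM and a log2 fold change of 0.43 on Tangerine against Red (SE 0.188, edgeR adjusted p 0.266), which rests on at most 20 counts per library. The regulators Cfi (factor I, which cuts C3b), C4bp (C4b-binding protein) and Serping1 (C1 inhibitor) lay between 0.00 and 0.12 against Control.

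Of the pore components, C8a had an unadjusted edgeR p under 0.05 against Control on both tomato diets. C8a encodes the alpha chain of C8, and its Control libraries ran from 425 over a median of 626 to 798 CPM. Its Red libraries ran from 463 over 748 to 885 CPM and its Tangerine libraries from 549 over 720 to 867 CPM. All diets overlapped, and 9 of 12 Red and 11 of 12 Tangerine libraries exceeded the Control median. Against Control, the log2 difference was 0.22 on Red (SE 0.092, edgeR adjusted p 0.297), 0.20 on Tangerine (adjusted p 0.837) and 0.21 for both tomato diets (SE 0.081, adjusted p 0.604). With limma-voom it passed on Red (adjusted p 0.0228).

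The partners of C8a were not alike. C8b, the beta chain, encoded next to C8a on chromosome 4, had 0.14 and 0.16 on Red and Tangerine against Control (SE 0.106, unadjusted edgeR p 0.185 and 0.131). C8g, the gamma chain, encoded on chromosome 2, had -0.08 and 0.02. From mouse to mouse C8a and C8b had an r of 0.76 (permutation p 2.0e-05) and a rho of 0.70 (permutation p 3.0e-05) after the diet means were subtracted, and r was 0.81 on Control, 0.94 on Red and 0.19 on Tangerine. Without Red mouse 186 the pooled r was 0.68. C8a and C8g had 0.12 (permutation p 0.505) and rho 0.10 (permutation p 0.562), and C8b and C8g 0.10 (permutation p 0.581) and rho 0.09 (permutation p 0.620). Adjusted over the 6 subunit pairs of fibrinogen and C8, the p-values of the last 2 pairs were 0.581. C6 had 0.15 and 0.18 (SE 0.180 each) and C9 had 0.01 and 0.13 (SE 0.103 each) on Red and Tangerine against Control.

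C5ar1 is known from myeloid cells and not from hepatocytes. Its medians were 1.68 CPM on Control, 1.46 on Red and 1.42 on Tangerine, and its highest value was 5.97 CPM in Tangerine mouse 192, the library with the highest neutrophil and cholangiocyte markers. The log2 fold change of Tangerine against Red was 0.33 (SE 0.234, unadjusted edgeR p 0.171). Across libraries C5ar1 and the summed Kupffer cell markers had an r of 0.64 and a rho of 0.48, and r was 0.74 without Tangerine mouse 192 and 0.42 without the 2 libraries farthest from the median. The Kupffer cell sums ranged from 88.6 to 289 CPM on Control, 181 to 329 on Red and 123 to 273 on Tangerine, and their part in the C5ar1 values was not tested.

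Coagulation begins at a surface with the contact system or with factor VII. Klkb1 (plasma prekallikrein) had medians of 230 CPM on Control, 185 on Red and 228 on Tangerine, within overlapping ranges of 142 to 284, 126 to 240 and 166 to 286 CPM. Its log2 difference was -0.22 on Red against Control (SE 0.109, edgeR adjusted p 0.374) and 0.24 on Tangerine against Red (adjusted p 0.286). F12, Kng1 and F11 lay between -0.04 and -0.01 on Red and between 0.03 and 0.09 on Tangerine against Control.

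F7, the factor that starts coagulation with tissue factor, had medians of 92.8 CPM on Control, 88.9 on Red and 93.8 on Tangerine. Its lowest libraries held 84.3, 64.7 and 75.4 CPM, and 4 of 12 Red libraries lay below every Control library. F7 had a log2 difference of -0.14 on Red against Control (SE 0.063, edgeR adjusted p 0.335) and 0.15 on Tangerine against Red (adjusted p 0.225). F9, F10, F2 and F5, which carry the cascade on to thrombin, all had values below 0 on Red against Control, from -0.16 for F9 (unadjusted edgeR p 0.0739) to -0.05 for F5, and on Tangerine they lay between -0.01 and 0.02. F13b, the carrier subunit of the enzyme that cross-links fibrin, had -0.08 on Red and 0.02 on Tangerine and so did not follow the fibrinogen chains in sign between the tomato diets, where it had 0.10 (SE 0.067).

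The anticoagulants and the genes of clot breakdown had small values, none past the threshold. Pros1 (protein S, the cofactor of activated protein C) had medians of 48.4, 44.2 and 47.4 CPM on Control, Red and Tangerine and a log2 fold change of 0.14 on Tangerine against Red (SE 0.065, edgeR adjusted p 0.277). Proc (protein C) had 0.09 in that comparison, and Serpinc1 (antithrombin) 0.02. Plg, the precursor of plasmin, had 0.02 (SE 0.062), Cpb2, which protects fibrin from plasmin, 0.03 (SE 0.049) and Serpinf2, the plasmin inhibitor, -0.04 (SE 0.069).

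Across mice, Serpinf2 and Cpb2 followed fibrinogen most closely, although their values between the tomato diets were small. After the diet means were subtracted, the r with the mean of the 3 fibrinogen chains was 0.75 for Serpinf2, 0.67 for Cpb2 and 0.59 for Cfi, and it was lowest for F5 at -0.42. Of the 33 other tested members 24 were positive, against 47.2% of 14065 other genes, and their median was 0.27, against -0.02. An r above 0.5 was reached by 6 members (18.2%), against 2.87% of other genes. Red mouse 186, the library with adipose and T cell transcripts, had the lowest fibrinogen of its diet. Without it the median was 0.10 and 2 members exceeded 0.5 (6.06%, against 3.65% of other genes), Serpinf2 with 0.69 and Cpb2 with 0.62, while Cfi had 0.48 and F5 -0.59. All these values share the libraries and their scaling and are given as a description.

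**Figure D5:**
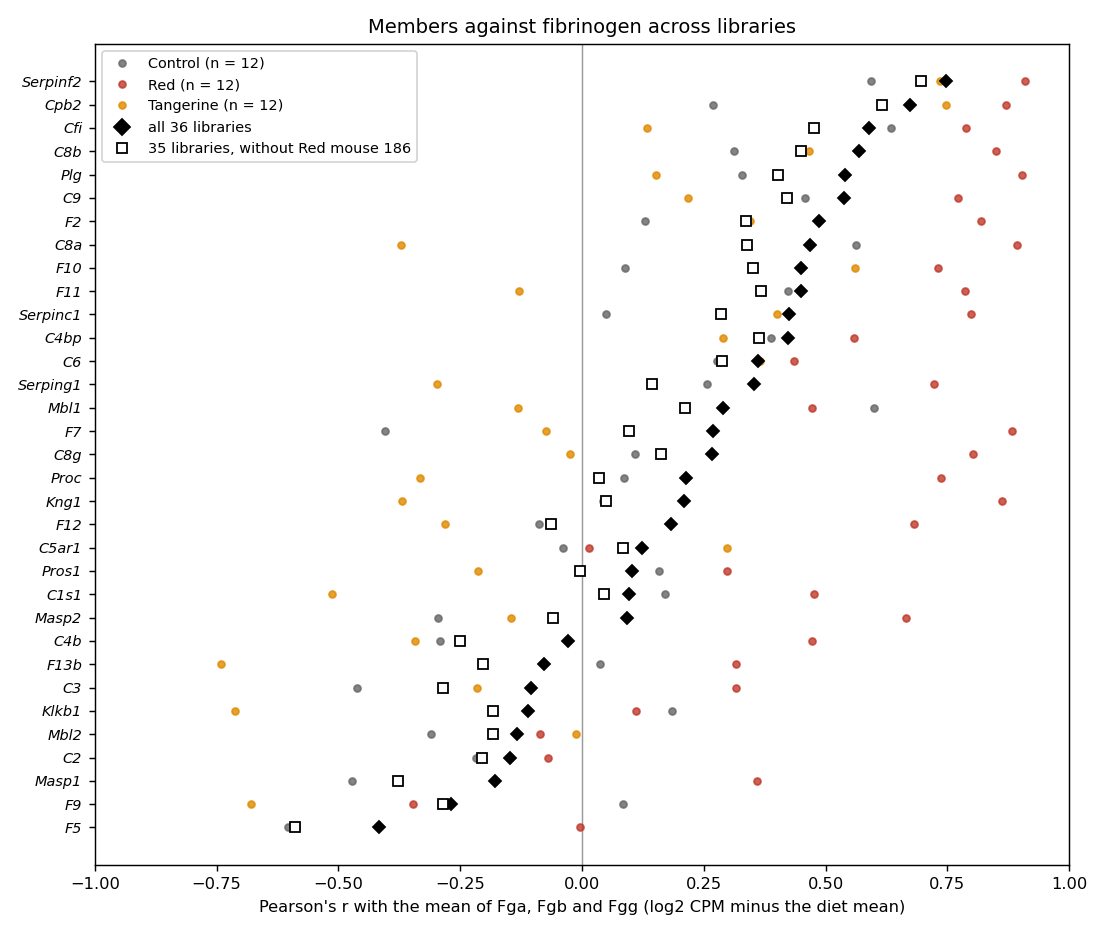
Pearson's r (x axis) of each other tested member with the mean log2 CPM of Fga, Fgb and Fgg after the diet means were subtracted, per diet (circles, 12 libraries each), over all 36 libraries (diamonds) and over 35 libraries without Red mouse 186 (squares). Serpinf2 and Cpb2 stand highest with and without that mouse, F5 stands lowest, and Red values run higher than those of the other diets for most genes.

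Other genes of the same systems were counted from lists written beside the members. Of 29 tested of 33 other complement genes, 0 passed in any of the 4 comparisons. Those with an unadjusted edgeR p under 0.05 numbered 1 on Red against Control, 2 on Tangerine against Control and 2 between the tomato diets. These were 3.4%, 6.9% and 6.9% of those tested, where 13.3%, 5.47% and 15.1% of all genes had such a p. The lowest adjusted p was that of Cr1l, which encodes a complement regulator of mouse cell membranes, with 0.12 on Tangerine against Red (SE 0.038, edgeR adjusted p 0.0832). Hc, the gene of C5, had -0.04 there (SE 0.061). Of 32 tested of 38 other coagulation and fibrinolysis genes 0 passed. In the same order 4, 1 and 3 had an unadjusted p under 0.05 (12.5%, 3.1% and 9.4%), each below the share of all genes. Among them was Fgl1, a fibrinogen-like hepatocyte protein, with -0.38 on Red against Control (SE 0.147, edgeR adjusted p 0.249).

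No acute phase gene outside the members passed the threshold. Of 20 tested of 22 such genes 0 passed in the 4 comparisons, and their median log2 fold change on Tangerine against Red was 0.02. Hp (haptoglobin, a classical acute phase protein) had 0.21 there (SE 0.080, edgeR adjusted p 0.193), the opposite sign to the fibrinogen chains, and the Tangerine mean of 1600 ± 239 CPM stood over a Red mean of 1385 ± 145 CPM (SD, n = 12). Saa1 and Saa2, serum amyloid A genes that inflammation raises steeply, had -0.24 and -0.21 (SE 0.204 and 0.301) at mean levels between 10.4 and 27.6 CPM. Orm1 (orosomucoid) had -0.00 (SE 0.090). Of the 10 acute phase signalling genes 0 passed, and Il6ra, a subunit of the interleukin-6 receptor, had 0.34 (SE 0.274), Stat3, the factor it activates, -0.05 (SE 0.048) and Socs3, a target of Stat3, 0.20 (SE 0.256).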

How the data were processed

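Per the labels' protocols, RNA from preserved liver was extracted with Qiagen columns and made into libraries with a directional kit. The authors deposited raw read counts per gene for 36 libraries. Per the submitters' processing notes, FastQC, Trimmomatic, edgeR and GRCm38.p6 were used; the aligner, the counting program, its strand setting and its treatment of shared reads are not given in the sources used here. Columns were matched to samples by the column name in each label, and 0 columns were left unmatched. Symbols and positions came from GENCODE M21 (GRCm38), which matched 53620 of 53715 identifiers.

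Genes were filtered with filterByExpr (a count of at least 10, a total of 15), scaled by TMM and tested with edgeR 4.0.16 (quasi-likelihood F test, robust, all 36 libraries, no covariates). Benjamini-Hochberg adjustment ran over all 14068 genes per comparison, with a threshold of 0.05. Standard errors came from the F statistic. CPM values use TMM library sizes, and log2 CPM a prior count of 2. Levels per length use the longest transcript annotated as principal, or the union of annotated exons for a gene without one. The naming rule took members past the threshold, the 3 with the smallest unadjusted p per comparison, listed members of each role and listed acute phase genes (1 further listed gene is not reported here); other members with an unadjusted p under 0.05, Cr1l, Hc, Fgl1 and Plrg1 were named after their values were seen. The members and lists were chosen with earlier results of these data known. Correlations used log2 CPM minus the diet mean and 100000 permutations within diets. The clock term, the relation of all genes with fibrinogen and the relations without Red mouse 186 were added after seeing the data. Tested on simulated data for Tangerine against Red over 14068 genes, the procedure recovered 40% of 50 genes changed by 1.25-fold and 82% of 50 changed by 1.5-fold, and called 4 unchanged genes. How these values change where genes vary together from mouse to mouse, as the fibrinogen chains did, was not tested. Other settings used DESeq2 1.42.0, limma 3.58.1 and sva 3.50.0. The labels mention no molecular identifiers, so limits from a count of 0 cover counting error only.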

Additional observations from a re-analysis of the deposited data

Results flagged for a closer look

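Fga, Fgb and Fgg were lower on Tangerine than on Red, by log2 values of -0.34, -0.31 and -0.30. With the clock score in the fit 0 of them passed. In that fit 0 of all genes passed between the tomato diets, against 241 with diet alone, so this 0 is not particular to fibrinogen.

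Some libraries held more signal of other tissues and cells than any Control library. Between the tomato diets 3 of 5 tested T cell markers passed the threshold, against 1.71% of all genes. Their median sums, however, were 6.44 CPM on Red and 6.24 CPM on Tangerine. Their calls were not counted without Red mouse 186, the library with the highest sum. Pancreas markers summed to 321 counts in Tangerine mouse 216, above the highest Control library at 2 counts. The adipose markers Adipoq, Plin1 and Lep summed to 204 counts in Red mouse 186, above the highest Control library at 4 counts, and T cell markers to 243 CPM in the same library, above 7.41 CPM. Cholangiocyte markers summed to 111 CPM and neutrophil markers to 7.85 CPM in Tangerine mouse 192, above 30.3 and 2.79 CPM in Control.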

How the results depend on the processing

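No paired analysis was possible because each mouse number occurs in 1 diet. Against 3 members past the threshold in Tangerine against Red, there were 0 without a low-count filter and 1 with only the groups compared. There were 0 with the clock score as covariate (0 also without Red mouse 186) and 0 with the mouse number as covariate, and leaving out 1 library gave 0 to 3. With size factors of DESeq2 in the edgeR test Fgg did not pass (adjusted p 0.0533). With limma-voom and with surrogate variables all 3 chains passed, and Mbl1 beside them. The log2 fold changes of Fga, Fgb and Fgg, -0.34, -0.31 and -0.30, were -0.33, -0.30 and -0.30 without the filter. They were -0.34, -0.30 and -0.30 with only the groups compared and -0.31, -0.28 and -0.26 with the mouse number. Adding the clock score made them smaller in size, at -0.14, -0.19 and -0.07. When Red mouse 186 was also left out of that fit they were -0.16, -0.21 and -0.09. They were larger in size in limma-voom (-0.39, -0.36 and -0.36) and in the fit using 5 surrogate variables (-0.41, -0.36 and -0.40). On Red against Control, 4 members passed with limma-voom and 4 with 5 surrogate variables (1482 and 404 of all genes, against 21), and on Tangerine against Control 1 with surrogate variables (100 of all genes, against 2). For any difference among the diets there were 2 with DESeq2, 5 with limma-voom, 8 with surrogate variables, 1 without both Tangerine mouse 216 and Red mouse 186, and 0 to 2 when 1 library was left out. In edgeR with diet alone 1.18% of all genes passed that test. The share of all genes was not counted under the other settings, so these counts cannot be set against it.

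Members with an unadjusted p under 0.05 in Tangerine against Red went from 11 to 0 with the clock score, to 1 with it and without Red mouse 186, to 5 without both libraries, and to 6 to 13 when 1 was left out. On Red against Control they went from 7 to 13 with limma-voom, to 1 with the clock score, to 2 with it and without Red mouse 186, and to 4 to 9 by leaving out 1. On Tangerine against Control they went from 3 to 5 with DESeq2, 6 with limma-voom, 5 with only the groups compared, 0 with the mouse number, 11 with surrogate variables and 1 to 5 by leaving out 1. For both tomato diets they went from 1 to 2 without the filter, 5 with limma-voom, 2 with the clock score, 7 with surrogate variables, 3 without both libraries, 5 with the clock score and without Red mouse 186, and 1 to 4 by leaving out 1. Shares of all genes at an unadjusted p under 0.05 were not counted under these settings, so the counts describe the settings and not the members.

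Other lists gave 0 except as follows. Other complement genes numbered 1 with DESeq2, limma-voom or surrogate variables between the tomato diets (0 to 1 by leaving out 1), 3 with limma-voom on Red, and 2 on Tangerine and 1 on both diets with surrogate variables. Other coagulation genes numbered 2 on Red and 1 between tomato diets with limma-voom. Acute phase genes numbered 1 on Red with limma-voom and 1 between tomato diets with surrogate variables, and acute phase signalling 1 on Red with limma-voom. Of all 14068 genes, limma-voom called 1482 on Red and 732 between tomato diets, and DESeq2 called 391 between tomato diets. With surrogate variables 769 passed between tomato diets, 100 on Tangerine and 62 on both diets. The list counts come from these wider calls and are not read as results about the lists. Signs turned for Fgg on Red against Control with the clock score (-0.060, and -0.040 also without Red mouse 186), for Masp1 between tomato diets (-0.000950 and -0.0061) and, without Tangerine mouse 216 and Red mouse 186, for the r of C8a with C8g (-0.042) and C8b with C8g (-0.102). The median log2 fold change of the members moved by less than 0.084, the SD between mice, under every setting. That bound is wider than the medians themselves, so it cannot show that their size or sign held. By leaving out 1 library, the median on Red against Control ran from -0.045 to 0.007. The causes were not tested.

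Genes called between the tomato diets numbered 769 with surrogate variables, 732 with limma-voom, 391 with DESeq2, 136 without a filter, 86 without both libraries, 32 with the mouse number and 0 with the clock score, against 241, and between 89 (without Tangerine mouse 216) and 301 (without Control mouse 137) when 1 library was left out. On Red against Control they numbered 21, and between 13 (without Red mouse 166) and 127 (without Control mouse 189). The settings without Red mouse 186 were chosen after seeing the data. Counts of C2 and C5ar1 are too few for small differences.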
